A study of Homo sapiens with 12 samples.

Results

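Genomic imprinting leaves a gene active on only 1 parental chromosome, and 39 human imprinted genes at 21 loci were followed here through neural cultures of the embryonic stem cell lines H9 and H1. The 39 genes were listed by name and matched by symbol to the 63925 Ensembl gene IDs of the count files, and all 39 were found. The cultures had gone through 10 weeks of neural differentiation by dual SMAD inhibition and were then exposed for 6 h to dexamethasone or to its solvent. The groups were H9 cultures with 1 µM dexamethasone, H9 cultures with the DMSO vehicle, H1 cultures with 1 µM dexamethasone and H1 cultures with the DMSO vehicle, with 3 sister cultures in each. Each line is a single established human embryonic stem cell line, and the labels name no separate differentiation, so that line, culture history and differentiation run cannot be told apart in any comparison of H9 with H1.

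Imprints are marks of DNA methylation set in the egg or the sperm at imprinting control regions, and they decide which parental copy of the neighbouring genes is transcribed. Because the marks act on whole clusters, genes of opposite parental expression often sit side by side, typically a noncoding RNA from one chromosome and protein-coding genes from the other. Imprinted genes are known for roles in growth, in placenta and in brain, and imprints are known to be lost or gained at some loci when human pluripotent stem cells are kept in culture. Polyadenylated RNA counts do not show which allele a read came from, and DNA methylation was not measured, so the values below are total RNA levels.

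Total counts ran from 14751168 to 27505804 per library. H9 vehicle culture 3 held the lowest total, and only 0.607% of its reads came from the mitochondrial genome, a share that was 4.8% to 5.64% in its fellow H9 cultures and 2.91% to 3.23% in those of H1. Results that lean on this culture are therefore given with and without it. Summed levels of 12 neuronal markers were 6100 to 7190 CPM (scaled by TMM) in H9 cultures and 4090 to 4680 CPM in H1 cultures, and those of 10 astrocyte markers were 1560 to 2570 CPM in H9 cultures and 867 to 1060 CPM in H1 cultures, with 6 of the 10 higher and 0 lower in H9 vehicle cultures. Of the 12 neuronal markers, 7 were higher and 1 (ELAVL4) was lower in H9 vehicle cultures. The 10 proliferation markers were all lower in H9 vehicle cultures, with sums of 152 to 216 CPM in H9 and 701 to 772 CPM in H1, and the 12 mesenchymal markers summed to 550 to 657 CPM in H9 vehicle cultures and 2370 to 3920 CPM in H1 vehicle cultures, where 7 of the 12 were lower and 1 was higher in H9. In such bulk RNA, fewer cells of a type and less RNA per cell cannot be told apart, and the part of cell makeup in the line differences below was not tested.

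Of the 39 genes, 31 had enough counts to be tested. In the vehicle cultures 20 of the 31 passed the test between the lines (edgeR's quasi-likelihood test, Benjamini-Hochberg adjusted p under 0.05 over 17819 genes), 8 of them higher and 12 lower in H9, while 46.9% of all tested genes passed, 25.7% higher and 21.2% lower. In the dexamethasone cultures 19 of 31 passed, 7 higher and 12 lower in H9, against 43.6% of all genes, 22.5% higher and 21.2% lower. The median log2 fold change of H9 over H1 was -0.16 for the 31 genes and 0.03 for all genes in the vehicle cultures, and -0.07 for the 31 genes and -0.01 for all genes in the dexamethasone cultures. Both treatments gave the same call in the same direction for 17 genes, which is 54.8% of the 31 and compares with 33% of all genes. A change of at least 1 on the log2 scale with a call in the vehicle cultures was seen for 11 of the 31 genes, or 35.5%, against 20.7% of all genes. Without H9 vehicle culture 3 the calls numbered 24 of 31 in the vehicle cultures, with 58.6% of all genes called, and 26 of 31 in the dexamethasone cultures, with 64.6% of all genes called. The plot of fold changes by locus shows that the widest difference in each treatment was that of MEG3 at 14q32, while H19 came next in dexamethasone cultures.

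**Figure D1:**
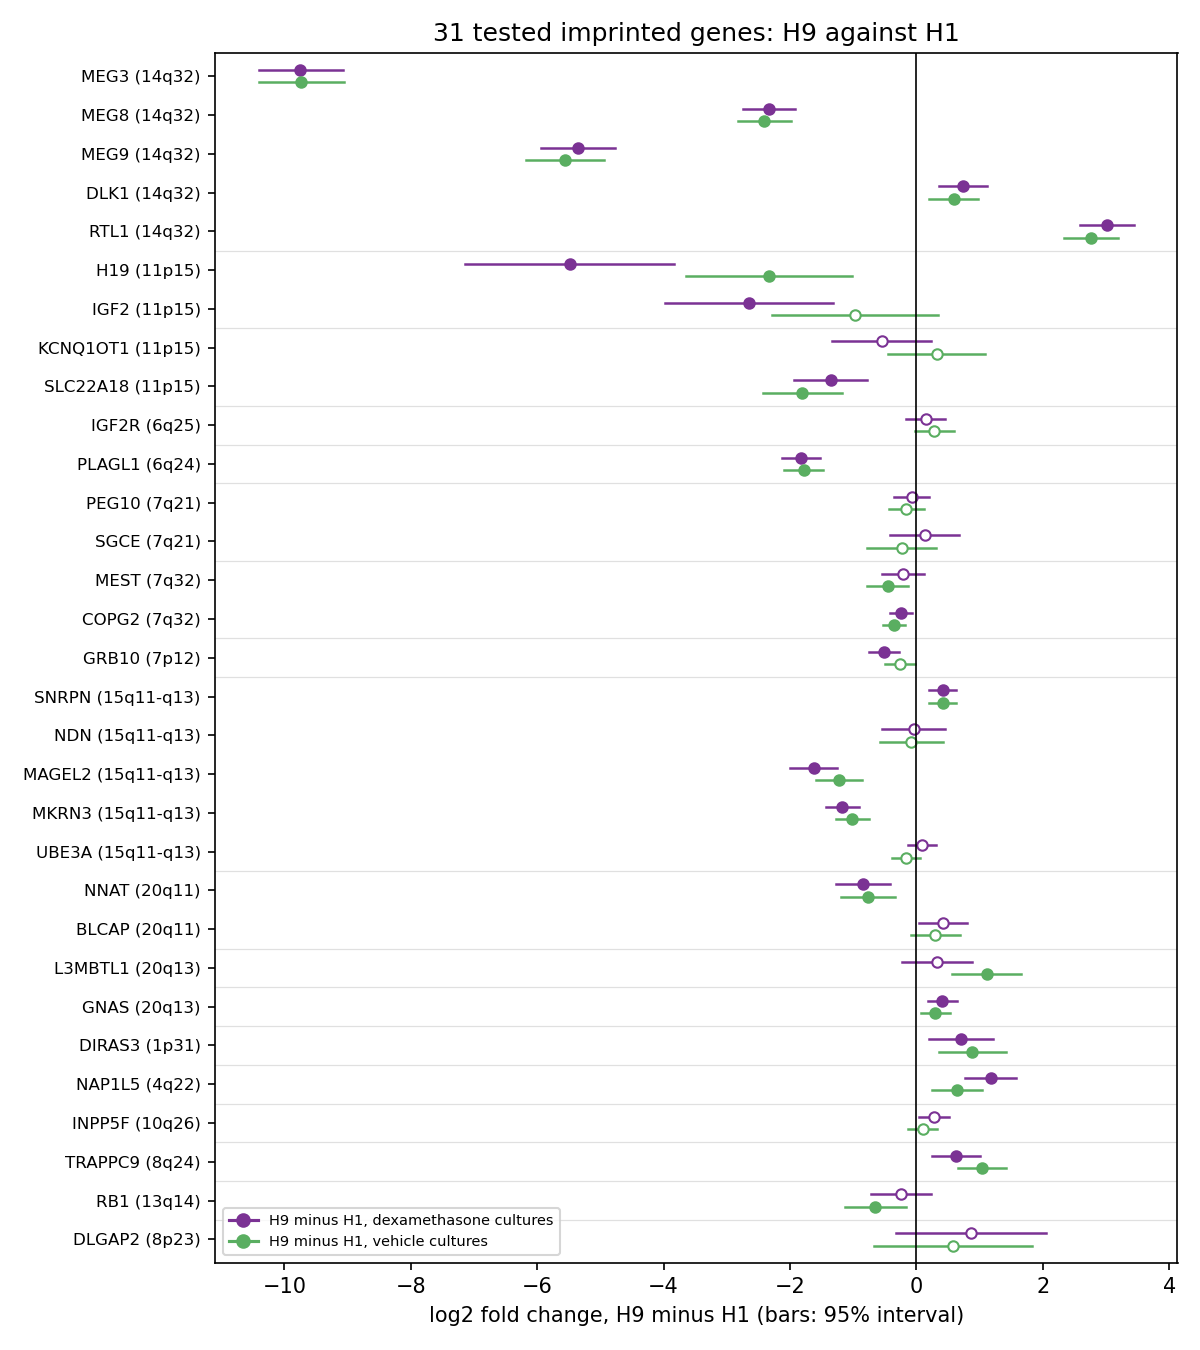
Log2 fold change of H9 over H1 for the 31 tested imprinted genes, in rows ordered by locus, in dexamethasone cultures (purple) and vehicle cultures (green), with 95% intervals; filled points passed edgeR's test at an adjusted p under 0.05 and open points did not. MEG3 lies at -9.76 and -9.73, while RTL1 of the same locus lies at 3.01 and 2.77.

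The largest difference was at 14q32, the DLK1-MEG3 cluster, where the noncoding RNAs of the maternal chromosome were lower in H9 and the protein-coding genes of the paternal chromosome were higher in H9. The RNA of MEG3, a long noncoding RNA that heads the maternal transcripts, was near 0 in H9. The cluster is known for its paternally methylated control region and for its many maternally expressed small RNAs. On GRCh38, MEG3 is annotated on the plus strand at chr14:100779410-100861031, MEG8 at chr14:100894770-101038859 and MEG9 at chr14:101064151-101072937. DLK1 is annotated on the plus strand at chr14:100725705-100738224, and RTL1 on the minus strand at chr14:100879753-100903722.

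The starts of MEG3 and RTL1 are shown because these genes went in opposite directions. Each line gives 300 bases from RefSeq (GRCh38.p14), 250 before and 50 after the start it annotates, with every CG pair, the site of DNA methylation, in capitals. The MEG3 window is chr14:100825858-100826157 on the plus strand, inside the gene as GENCODE draws it, and the RTL1 window is chr14:100903673-100903972 on the minus strand.
MEG3: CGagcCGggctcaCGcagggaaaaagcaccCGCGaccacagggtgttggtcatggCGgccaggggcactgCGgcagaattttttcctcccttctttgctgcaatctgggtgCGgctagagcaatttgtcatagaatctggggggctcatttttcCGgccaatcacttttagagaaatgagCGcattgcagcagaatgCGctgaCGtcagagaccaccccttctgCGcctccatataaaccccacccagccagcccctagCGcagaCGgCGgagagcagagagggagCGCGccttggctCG
RTL1: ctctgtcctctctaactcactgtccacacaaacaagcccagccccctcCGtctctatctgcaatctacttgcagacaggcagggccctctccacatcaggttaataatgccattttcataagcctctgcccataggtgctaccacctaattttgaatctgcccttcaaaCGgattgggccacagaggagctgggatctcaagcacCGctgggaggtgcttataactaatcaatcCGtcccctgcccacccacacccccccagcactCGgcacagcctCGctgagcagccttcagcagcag
The MEG3 window held 19 CG pairs and 1 copy of TGCCGC, the hexamer bound by the imprint-keeping factor ZFP57 when it is methylated, searched on both strands. The RTL1 window held 6 CG pairs and no copy of the hexamer. The median over all 35114 such windows was 14 CG pairs, and 16.7% of them held the hexamer. Of the 25 imprinted genes with a window in the table, 10 held the hexamer, or 40%, and their CG counts ranged from 0 to 44 with a median of 19. For each of these genes only 1 window was taken, which need not be its main or imprinted start. The count of 0 is that of RB1, whose window at chr13:48476200-48476499 lies inside the gene annotated at chr13:48303726-48599436.

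RTL1 also lies opposite to maternal microRNAs, which is why their sequences are shown. MIR431, MIR433, MIR127, MIR432 and MIR136 sit on the plus strand within the span of RTL1, and in mouse such microRNAs direct the cleavage of Rtl1 RNA. Of the 10 mature sequences that RefSeq lists for these 5 genes, all 10 had an exact complement in the annotated RTL1 transcript, and their 10 seeds (bases 2 to 8, in capitals) were all different. Such a complement follows from position alone, because the 5 genes lie wholly opposite to RTL1 exon bases. One arm of each is given, with U for T.
hsa-miR-431-5p: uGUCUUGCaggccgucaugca
hsa-miR-433-3p: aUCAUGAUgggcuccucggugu
hsa-miR-127-3p: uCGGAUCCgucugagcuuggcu
hsa-miR-432-5p: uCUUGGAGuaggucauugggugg
hsa-miR-136-5p: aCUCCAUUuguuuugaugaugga
The site for hsa-miR-127-3p in RTL1 reads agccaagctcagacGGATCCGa in the sense strand, with the seed match in capitals. The rows of these microRNA genes are listed at 0 in all 12 files, and polyadenylated RNA libraries do not capture mature microRNAs, so their levels are not known here.

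MEG3 had 0.345, 0.501 and 0.422 CPM in the H9 dexamethasone cultures, against 387, 364 and 367 CPM in the H1 dexamethasone cultures. It had 0.81, 0.25 and 0.136 CPM in the H9 vehicle cultures, against 380, 370 and 374 CPM in the H1 vehicle cultures. No H9 culture came near an H1 culture, and the H1 cultures lay close together. Summed over the vehicle cultures, the gene drew 28 reads in H9 and 27998 reads in H1, which after scaling is a level 847-fold lower in H9 (95% interval 586 to 1270, counting error only). The fitted log2 fold change was -9.73 ± 0.31 in vehicle cultures (SE, adjusted p = 2.71e-09, edgeR) and -9.76 ± 0.308 in dexamethasone cultures (adjusted p = 2.45e-09). H9 vehicle culture 1 was the highest of its group, and without it the vehicle value was -10.81, beyond the counting interval. It was -9.44 without H9 vehicle culture 3.

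MEG9, a maternal noncoding RNA at the far end of the cluster, followed the same order. It had 0.203, 0.167 and 0.204 CPM in the H9 vehicle cultures, against 10.7, 7.45 and 9.44 CPM in the H1 vehicle cultures. Its log2 fold change was -5.56 ± 0.284 in vehicle cultures (adjusted p = 7.73e-08, edgeR) and -5.36 ± 0.269 in dexamethasone cultures (adjusted p = 6.59e-08). MEG8, which hosts clusters of small nucleolar RNAs, kept a measurable level in H9, with 3.77, 2.21 and 2.31 CPM in the H9 vehicle cultures, against 14.5, 13.9 and 16.2 CPM in the H1 vehicle cultures. Every H9 culture lay below every H1 culture, and the log2 fold change was -2.41 ± 0.19 in vehicle cultures (adjusted p = 1.76e-06, edgeR) and -2.34 ± 0.19 in dexamethasone cultures. A stretch of 38.9% of the MEG8 span lies in other genes of its strand, MIR493HG among them, and 6.21% lies opposite to RTL1.

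RTL1, a gag-pol-like protein derived from a retrotransposon and known to be needed in placenta, ran the other way. It had 69.8, 48.4 and 75.4 CPM in the H9 dexamethasone cultures, against 8.3, 7.75 and 7.92 CPM in the H1 dexamethasone cultures. The H9 vehicle cultures held 57.7, 44.2 and 64.8 CPM and the H1 vehicle cultures 9.4, 6.99 and 8.12 CPM. No H9 culture overlapped an H1 culture, and the level was 6.8-fold higher in H9 vehicle cultures, a log2 fold change of 2.77 ± 0.193 (adjusted p = 7.4e-07, edgeR), and 8.07-fold higher in H9 dexamethasone cultures.

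DLK1, a membrane-bound and secreted relative of the Notch ligands, differed far less. It had 183, 175 and 184 CPM in the H9 vehicle cultures, against 99.8, 132 and 128 CPM in the H1 vehicle cultures. The groups did not overlap, and the level was 1.5-fold higher in H9, a log2 fold change of 0.59 ± 0.175 (adjusted p = 0.0162, edgeR). The call was lost when H1 vehicle culture 1 was left out (log2 fold change 0.47). In dexamethasone cultures it was 0.73 ± 0.176 (adjusted p = 0.00514), with 175, 232 and 197 CPM in H9 and 95.6, 111 and 156 CPM in H1.

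DIO3, the deiodinase that inactivates thyroid hormone, closes the cluster and is expressed mainly from the paternal copy. It comes from a list of further imprinted genes and not from the 39. Its level was 59.5, 59.5 and 82.5 CPM in the H9 vehicle cultures, against 15.8, 11.4 and 18 CPM in the H1 vehicle cultures, again without overlap, with a log2 fold change of 2.16 ± 0.185 (adjusted p = 3.33e-06, edgeR). Between DLK1 and DIO3 the files list 124 gene IDs, and 9 had enough counts to be tested. On the plus strand 4 of the 6 tested genes were lower in H9 (MEG3, MIR493HG, MEG8 and MEG9) and 2 were higher (DLK1 and DIO3). On the minus strand RTL1 was higher and AL117190.2, which lies within the span of MEG3, was lower, while DIO3OS did not pass (log2 fold change 0.20 ± 0.295, adjusted p = 0.598). AL117190.2 averaged 0.0278 CPM in H9 vehicle cultures and 3.57 CPM in H1 vehicle cultures, and so went with MEG3 on the other strand. The strand setting of the counting is not stated, although the zeros in the files followed strand, and whether any of its reads came from MEG3 was not tested. The plot of the 14q32 genes by culture and the plot by distance show both directions.

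**Figure D2:**
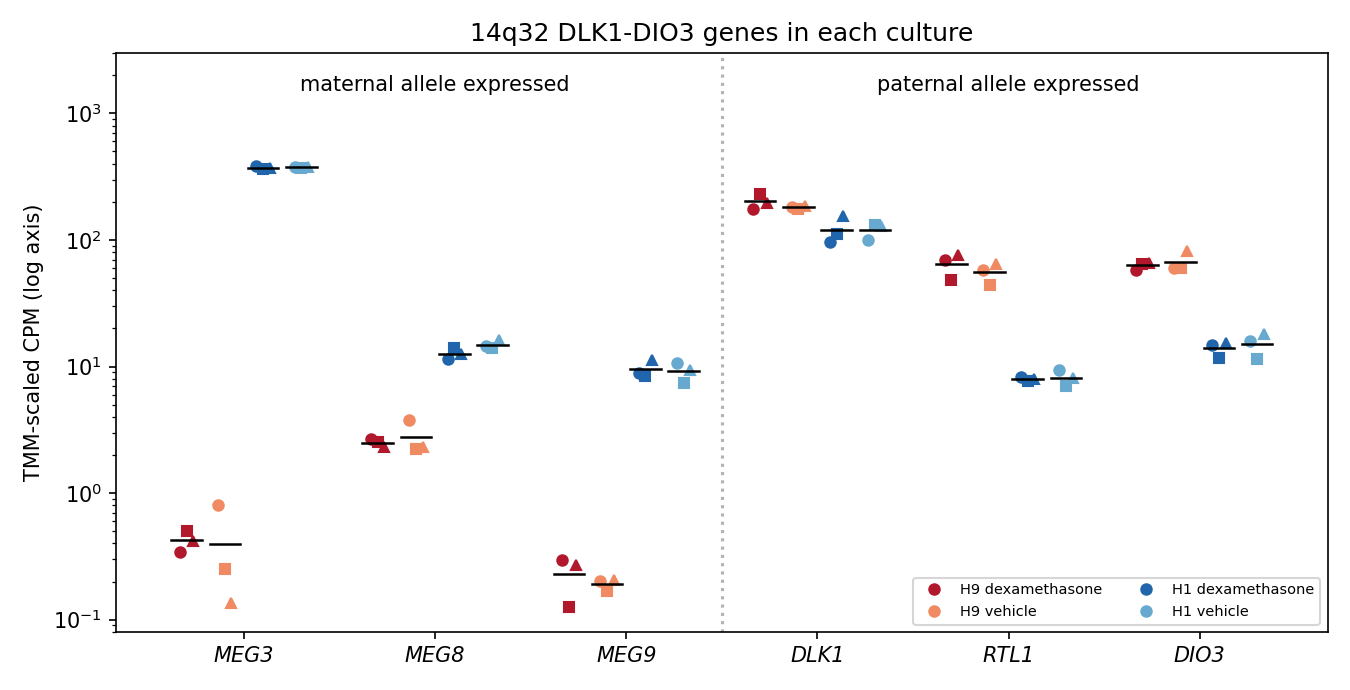
TMM-scaled CPM on a log axis of 5 of the 39 imprinted genes and of DIO3 in every culture, by group; circles, squares and triangles are cultures 1, 2 and 3, and bars are group means. MEG3, MEG8 and MEG9, expressed from the maternal allele, are lower in all H9 cultures, and DLK1, RTL1 and DIO3, expressed from the paternal allele, are higher.

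**Figure D3:**
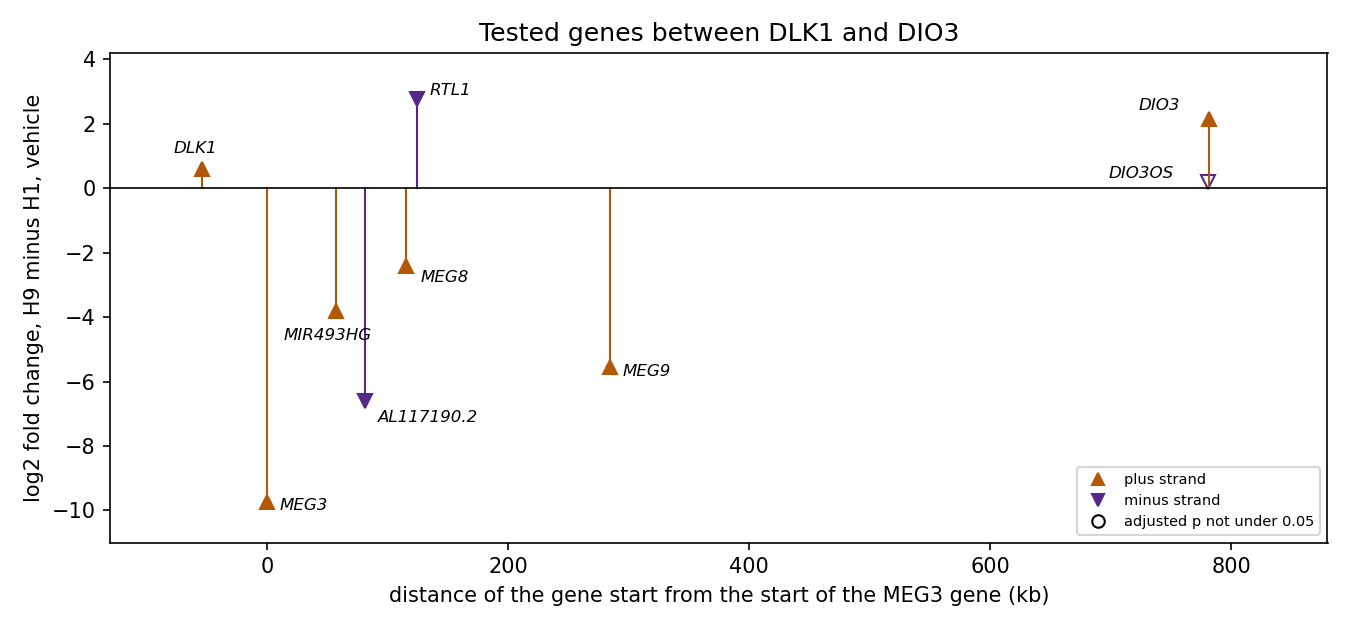
Log2 fold change of H9 over H1 in vehicle cultures for the 9 tested genes between DLK1 and DIO3, against the distance of each gene start from the start of MEG3 in kb; upward triangles are plus-strand genes, downward triangles minus-strand genes, and the open symbol did not pass the test. DLK1, RTL1 and DIO3 lie above 0 and the genes from MEG3 to MEG9 other than RTL1 lie below.

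At 11p15 there are 2 neighbouring imprinted domains, where H19 and SLC22A18 were lower in H9 under both treatments and IGF2 in the dexamethasone cultures. H19, a maternal noncoding RNA, and IGF2, the paternal insulin-like growth factor, share 1 control region. Both were low in every culture. H19 had 0.0493, 0.209 and 0.0767 CPM in the H9 dexamethasone cultures, against 2.28, 4 and 9.68 CPM in the H1 dexamethasone cultures. The H9 vehicle cultures held 1.09, 0.459 and 0.204 CPM and the H1 vehicle cultures 3.56, 3.78 and 2.2 CPM. The lines did not overlap under either treatment, and the log2 fold change was -2.33 ± 0.6 in vehicle cultures (adjusted p = 0.00748, edgeR) and -5.49 ± 0.757 in dexamethasone cultures (adjusted p = 0.000117). These values rest on 41 reads in H9 and 238 reads in H1 in the vehicle cultures, and on 8 reads in H9 and 404 reads in H1 in the dexamethasone cultures, and single libraries moved them. The vehicle value was -3.16 without H9 vehicle culture 1, and the dexamethasone value was -6.25 without H9 dexamethasone culture 2 and -4.72 without H1 dexamethasone culture 3, with the call kept each time.

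IGF2 had 0.345, 0.501 and 0.537 CPM in the H9 dexamethasone cultures, against 1.04, 2.19 and 5.62 CPM in the H1 dexamethasone cultures, where culture 3 was the highest for both genes. The dexamethasone groups did not overlap (log2 fold change -2.65 ± 0.607, adjusted p = 0.00398, edgeR), and without that culture the value was -1.77, still a call. In the vehicle cultures it had 1.05, 0.334 and 1.02 CPM in H9 and 2.12, 1.26 and 1.24 CPM in H1, and the difference of -0.96 ± 0.602 did not pass (adjusted p = 0.207). Other genes of the same strand cover 87.4% of the IGF2 span, so reads may have been lost there. Both genes are also known from mesenchymal tissue, and the summed mesenchymal markers were also lower in H9 (542 to 629 CPM in H9 and 1860 to 3720 CPM in H1 in the dexamethasone cultures). Of the 12 markers 6 were lower there, among them COL1A1, COL1A2 and POSTN, 2 were higher (TWIST1 at a log2 fold change of 2.29 and PRRX1 at 0.68) and 4 did not pass, among them LUM at 0.00 and DCN at -0.03; the part of this in the result was not tested.

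In the second 11p15 domain KCNQ1OT1 is a paternal antisense RNA that silences its neighbours, among them the growth-restraining genes CDKN1C and PHLDA2. SLC22A18, a transporter-like protein expressed from the maternal copy, had 0.405, 0.459 and 0.34 CPM in the H9 vehicle cultures, against 1.36, 1.91 and 1.04 CPM in the H1 vehicle cultures. The groups were apart at these low levels (log2 fold change -1.80 ± 0.284, adjusted p = 0.000318, edgeR), and so they were in dexamethasone cultures (-1.35 ± 0.264, adjusted p = 0.00143). KCNQ1OT1 had 16, 15.2 and 46.7 CPM in the H9 vehicle cultures, against 17.5, 24.4 and 19.7 CPM in the H1 vehicle cultures, and did not pass (log2 fold change 0.32 ± 0.353, adjusted p = 0.47). Here the direction hung on H9 vehicle culture 3, the highest of all: without it the log2 fold change was -0.40 (adjusted p = 0.0362). In dexamethasone cultures it was -0.55, with an adjusted p of 0.234 with that culture in the fit and 0.00252 without it. CDKN1C, the cyclin-dependent kinase inhibitor p57, had 0 to 2 reads per library and PHLDA2 was listed at 0 in all 12, so neither was tested.

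On chromosome 6, PLAGL1, a paternally expressed zinc finger factor that restrains growth, was lower in H9. It had 45, 41.2 and 32.2 CPM in the H9 vehicle cultures, against 132, 148 and 129 CPM in the H1 vehicle cultures. The H9 and H1 values were far apart in both treatments, with a log2 fold change of -1.79 ± 0.139 in vehicle cultures (adjusted p = 1.59e-06, edgeR) and -1.83 ± 0.139 in dexamethasone cultures (adjusted p = 1.25e-06). IGF2R, the receptor that removes IGF2 and is imprinted in mouse, averaged 314 ± 77 CPM in H9 vehicle cultures and 258 ± 8.3 CPM in H1 vehicle cultures (SD, n = 3 each) and did not pass (log2 fold change 0.28, 95% interval -0.02 to 0.59, adjusted p = 0.118, edgeR). Without H9 vehicle culture 3 that value was 0.06 and did not pass either (adjusted p = 0.411, edgeR). In dexamethasone cultures IGF2R was at 0.15, which did not pass with H9 vehicle culture 3 in the fit (adjusted p = 0.436) and passed without it (adjusted p = 0.036). FAM50B was listed at 0 throughout, and its whole span lies in another gene of the same strand.

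The 15q11-q13 region, whose loss causes Prader-Willi or Angelman syndrome depending on the parent of origin, showed both directions within its paternal genes. MAGEL2, a MAGE family protein of protein recycling, and MKRN3, a makorin that restrains the onset of puberty, were lower in H9. SNRPN, a splicing protein, was higher in H9, and NDN, the neuronal MAGE protein necdin next to MAGEL2, did not pass. MAGEL2 had 29.2, 37.5 and 21.7 CPM in the H9 vehicle cultures, against 60.4, 71.4 and 75.4 CPM in the H1 vehicle cultures. The groups did not overlap, and the log2 fold change was -1.22 ± 0.169 in vehicle cultures (adjusted p = 0.00012, edgeR) and -1.63 ± 0.169 in dexamethasone cultures (adjusted p = 1.3e-05).

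MKRN3 had 20.3, 18.8 and 22.8 CPM in the H9 vehicle cultures, against 40.8, 43.5 and 40.2 CPM in the H1 vehicle cultures. That was 2.01-fold lower in H9, with no overlap (log2 fold change -1.01 ± 0.121, adjusted p = 4.15e-05, edgeR). NDN had 105, 116 and 63.4 CPM in the H9 vehicle cultures, against 91, 110 and 99.7 CPM in the H1 vehicle cultures, and its log2 fold change of -0.08 had a 95% interval of -0.58 to 0.42. Without H9 vehicle culture 3 the value for NDN was 0.14, which did not pass either. SNRPN had 33.7, 41 and 38.1 CPM in the H9 vehicle cultures, against 29.2, 27.6 and 27.8 CPM in the H1 vehicle cultures. All H9 values were above all H1 values (log2 fold change 0.41 ± 0.0969, adjusted p = 0.0043, edgeR), and the difference was 0.42 in dexamethasone cultures. Other genes of the same strand, SNURF and SNHG14 among them, share 33.6% of the SNRPN exon bases. Reads may have been lost there, so the SNRPN count need not stand for its whole transcript.

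UBE3A, the ubiquitin ligase that neurons express from the maternal copy, averaged 163 ± 22 CPM in H9 vehicle cultures and 182 ± 4.2 CPM in H1 vehicle cultures (SD, n = 3 each) and did not pass (adjusted p = 0.21, edgeR). SNHG14, the long paternal transcript that runs opposite to UBE3A, averaged 644 ± 140 CPM in H9 vehicle cultures and 559 ± 38 CPM in H1 vehicle cultures (SD, n = 3 each). Its log2 fold change was 0.205 with H9 vehicle culture 3 and 0.024 without it, and neither passed. SNURF was listed at 0, and its whole span lies within SNRPN on the same strand.

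**Figure D4:**
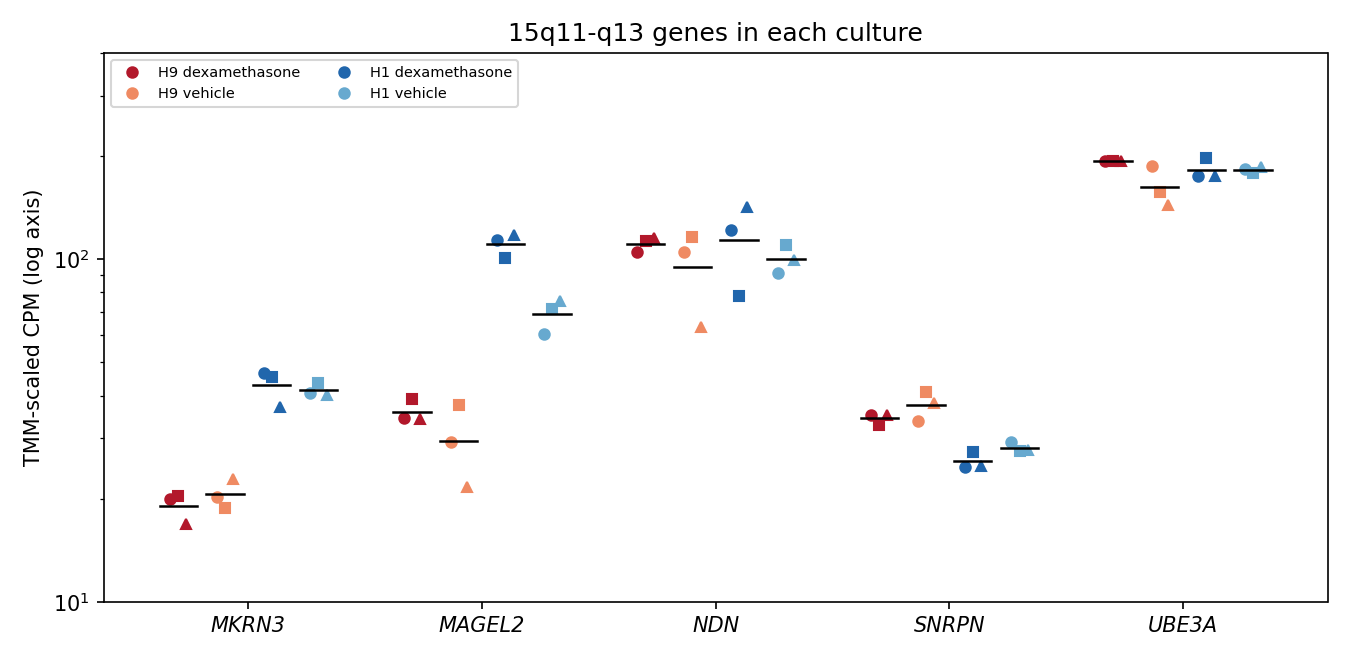
TMM-scaled CPM on a log axis of 5 genes of 15q11-q13 in every culture, by group; circles, squares and triangles are cultures 1, 2 and 3, and bars are group means. MKRN3 and MAGEL2 are lower in all H9 cultures, SNRPN is higher, and MAGEL2 in H1 is higher in the 3 dexamethasone cultures than in the 3 vehicle cultures, a difference that did not pass the test over all 12 libraries.

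The starts of MAGEL2 and NDN are shown because these neighbours share strand and parental origin but not their difference between the lines. The windows, from the same RefSeq table and with CG pairs in capitals, are chr15:23647818-23648117 for MAGEL2 and chr15:23687256-23687555 for NDN, both on the minus strand.
MAGEL2: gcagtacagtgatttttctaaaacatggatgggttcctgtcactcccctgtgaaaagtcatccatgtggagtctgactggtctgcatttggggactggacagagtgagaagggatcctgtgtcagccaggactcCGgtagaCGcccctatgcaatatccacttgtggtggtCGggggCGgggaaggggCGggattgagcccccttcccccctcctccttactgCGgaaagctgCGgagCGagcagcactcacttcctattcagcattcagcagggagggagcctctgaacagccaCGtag
NDN: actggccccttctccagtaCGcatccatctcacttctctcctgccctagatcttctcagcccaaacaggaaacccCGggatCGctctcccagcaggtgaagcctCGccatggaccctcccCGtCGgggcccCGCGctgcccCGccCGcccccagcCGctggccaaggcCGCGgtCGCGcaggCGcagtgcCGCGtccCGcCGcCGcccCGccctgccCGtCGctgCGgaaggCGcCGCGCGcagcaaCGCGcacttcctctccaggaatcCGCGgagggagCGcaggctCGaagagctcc
The MAGEL2 window held 9 CG pairs and no TGCCGC, and the NDN window held 35 CG pairs and 1 copy.

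On chromosome 20, NNAT, the neuronal proteolipid neuronatin, which lies inside an intron of BLCAP, was among the most abundant of the genes and lower in H9. It had 479, 534 and 285 CPM in the H9 vehicle cultures, against 634, 762 and 809 CPM in the H1 vehicle cultures. There was no overlap (log2 fold change -0.76 ± 0.197, adjusted p = 0.00747, edgeR), and in dexamethasone cultures the log2 fold change was -0.85 ± 0.197 (adjusted p = 0.00437). The vehicle value was -0.54 without H9 vehicle culture 3. BLCAP itself had log2 fold changes of 0.30 in vehicle cultures (adjusted p = 0.173) and 0.43 in dexamethasone cultures (adjusted p = 0.0658), and it passed in both without H9 vehicle culture 3 (0.52 and 0.43).

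L3MBTL1, a chromatin reader, had 29.8, 29.5 and 62.2 CPM in the H9 vehicle cultures, against 21.1, 15.8 and 19.2 CPM in the H1 vehicle cultures. The value of 62.2 CPM belongs to H9 vehicle culture 3, and the log2 fold change was 1.11 ± 0.253 with it (adjusted p = 0.00369, edgeR) and 0.67 without it. In dexamethasone cultures it was 0.33 ± 0.251 and did not pass (adjusted p = 0.321), though it did when that culture was left out of the shared spread (adjusted p = 0.0186). GNAS, which encodes the stimulatory G protein alpha subunit and several imprinted isoforms, averaged 1840 ± 210 CPM in H9 vehicle cultures and 1490 ± 22 CPM in H1 vehicle cultures (SD, n = 3 each). Its log2 fold change was 0.30 ± 0.105 in vehicle cultures (adjusted p = 0.033, edgeR), a call that 12 of 20 alternative settings lost, and 0.41 ± 0.105 in dexamethasone cultures (adjusted p = 0.00733).

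On chromosome 7 the differences were small or did not pass. PEG10, a gag-like protein from a retrotransposon, had the most counts of all 39 genes, 35422 to 88703 per library, with log2 fold changes of -0.16 in vehicle cultures (95% interval -0.43 to 0.11) and -0.07 in dexamethasone cultures. SGCE, the epsilon sarcoglycan of myoclonus-dystonia, shares its start region with PEG10 and had -0.23 ± 0.25 in vehicle cultures (adjusted p = 0.458, edgeR). Its direction hung on H9 vehicle culture 3, without which SGCE was at 0.08 and did not pass either. MEST, a hydrolase-like protein of mesoderm and brain, was lower in H9 vehicle cultures (-0.45 ± 0.151, adjusted p = 0.0267) but did not pass in dexamethasone cultures (-0.21 ± 0.15, adjusted p = 0.285). MEST passed in both without H9 vehicle culture 3, at -0.29 in vehicle cultures (adjusted p = 0.0111) and -0.21 in dexamethasone cultures (adjusted p = 0.0289). COPG2, a coat protein of transport vesicles, was lower in H9 in both (-0.36 ± 0.0794 and -0.24 ± 0.0793 in vehicle and dexamethasone cultures), and GRB10, an adaptor that dampens insulin signalling, was lower in dexamethasone cultures (-0.51 ± 0.109, adjusted p = 0.00254) and did not pass in vehicle cultures (-0.26 ± 0.109, adjusted p = 0.0689). GRB10 was lower in vehicle cultures too without H9 vehicle culture 3 (-0.38, adjusted p = 0.000196).

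Among the genes that stand alone at their loci, NAP1L5, a nucleosome assembly-like protein, was higher in H9. It had 53.4, 53.7 and 59.8 CPM in the H9 dexamethasone cultures, against 26.3, 19.3 and 28.3 CPM in the H1 dexamethasone cultures. The H9 vehicle cultures held 54, 46.3 and 31.7 CPM and the H1 vehicle cultures 30.2, 26.4 and 28.2 CPM, with no overlap in either treatment. The log2 fold change was 1.17 ± 0.184 in dexamethasone cultures (adjusted p = 0.000305, edgeR) and 0.64 ± 0.183 in vehicle cultures (adjusted p = 0.0129). The vehicle value was 0.83 without H9 vehicle culture 3.

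TRAPPC9, a subunit of a vesicle tethering complex, had 97.6, 104 and 171 CPM in the H9 vehicle cultures, against 61, 59.9 and 60.1 CPM in the H1 vehicle cultures. Culture 3 was again the highest in H9, and the log2 fold change was 1.04 ± 0.174 with it (adjusted p = 0.000497, edgeR) and 0.74 without it. In dexamethasone cultures it was 0.63 ± 0.173. DIRAS3, a small GTPase that restrains growth, averaged 3.38 ± 1.3 CPM in H9 vehicle cultures and 1.86 ± 0.15 CPM in H1 vehicle cultures (SD, n = 3 each), a log2 fold change of 0.89 ± 0.244 (adjusted p = 0.0107). For DIRAS3 it was 1.14 without H9 vehicle culture 3. RB1, the retinoblastoma protein, was lower in H9 vehicle cultures (-0.65 ± 0.22, adjusted p = 0.0295) and at -0.38 without H9 vehicle culture 3. In dexamethasone cultures RB1 was at -0.25 ± 0.218 and did not pass (adjusted p = 0.388), but passed at the same fold with that culture left out (adjusted p = 0.0125). INPP5F, a phosphoinositide phosphatase, did not pass in either treatment, with log2 fold changes of 0.10 and 0.28 in vehicle and dexamethasone cultures, but passed in both without H9 vehicle culture 3 (0.21 and 0.28).

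Of the 39 genes, 9 were not tested or averaged under 1 CPM in every group. Reads per H9 library were also few for MEG3 (2 to 20), MEG9 (3 to 7), H19 (1 to 27), IGF2 (7 to 26) and SLC22A18 (5 to 14). The 8 genes that were not tested were CDKN1C, PHLDA2, PEG3, ZIM2, USP29, SNURF, ZDBF2 and FAM50B, of which 5 (PHLDA2, PEG3, SNURF, ZDBF2 and FAM50B) were listed at 0 in all 12 libraries. ZIM2 had 1 read in a single library and USP29 at most 3 reads. DLGAP2, a postsynaptic scaffold, was tested but averaged under 1 CPM in every group and did not pass (log2 fold change 0.58 ± 0.572 in vehicle cultures, adjusted p = 0.422, edgeR). A value of 0 is no sign of silence in these files: of 655 coding genes whose whole span lies inside genes of the same strand, 625 were listed at 0, among them PEG3, SNURF and FAM50B, and TUBB, a tubulin gene that every cell uses, was at 0 too. PHLDA2 and ZDBF2 have no such neighbour, and their 0 is only that.

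Per kilobase of annotated exon, a scale that allows levels of different genes to be set side by side, PEG10 and NNAT stood above the rest in every group. PEG10 averaged 383 CPM per kb in H9 vehicle cultures and 428 CPM per kb in H1 vehicle cultures, and NNAT 325 CPM per kb in H9 vehicle cultures and 552 CPM per kb in H1 vehicle cultures. GNAS ranked next in all groups, at 112 to 152 CPM per kb. MEG3 stood at 0.0172 CPM per kb in H9 vehicle cultures and at 16.1 CPM per kb in H1 vehicle cultures. Because counts can include intron reads, these levels are rough for long genes.

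By parent of origin, all 5 tested genes of maternal expression were lower in H9 in both treatments (MEG3, MEG8, MEG9, H19 and SLC22A18). These 5 come from only 3 domains and are not independent. Of 16 tested genes of paternal expression, 6 were higher and 5 lower in H9 vehicle cultures, and 5 were higher and 5 lower in H9 dexamethasone cultures. Over all genes 25.7% were higher and 21.2% lower in vehicle cultures, and 22.5% and 21.2% in dexamethasone cultures. Genes imprinted by isoform or tissue, or whose imprinting in human is not settled, are in neither count.

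None of the 31 tested genes passed for dexamethasone in either line (edgeR's quasi-likelihood test). In H9, 0.0673% of all genes passed and 6 of the 31 had an unadjusted p under 0.05, as did 16.3% of all genes. In H1, 0.0505% of all genes passed and 1 of the 31 had an unadjusted p under 0.05, as did 2.95% of all genes. For the mean of both lines, with 0.101% of all genes called, it was 4 of the 31 against 7.49% of all genes, and for the difference between the lines' responses, with 0% called, 2 of the 31 against 7.46%. DESeq2 called 0 of the genes in each line and 1 for the mean of both lines. The share of all genes that DESeq2 called is not given here, so that 1 call cannot be set against it. Without H9 vehicle culture 3, edgeR called 0 of the 31 in H9 (0.293% of all genes), 1 in H1 (MAGEL2, 0.326% of all genes) and 1 for the mean of both lines (MAGEL2, 0.774% of all genes). Libraries of the treatments were free of overlap for 3 genes higher and 2 lower with dexamethasone in H9, where 9.76% and 11.6% of all genes were so, and for 4 higher and 2 lower in H1, where 7.15% and 6.98% were.

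**Figure D5:**
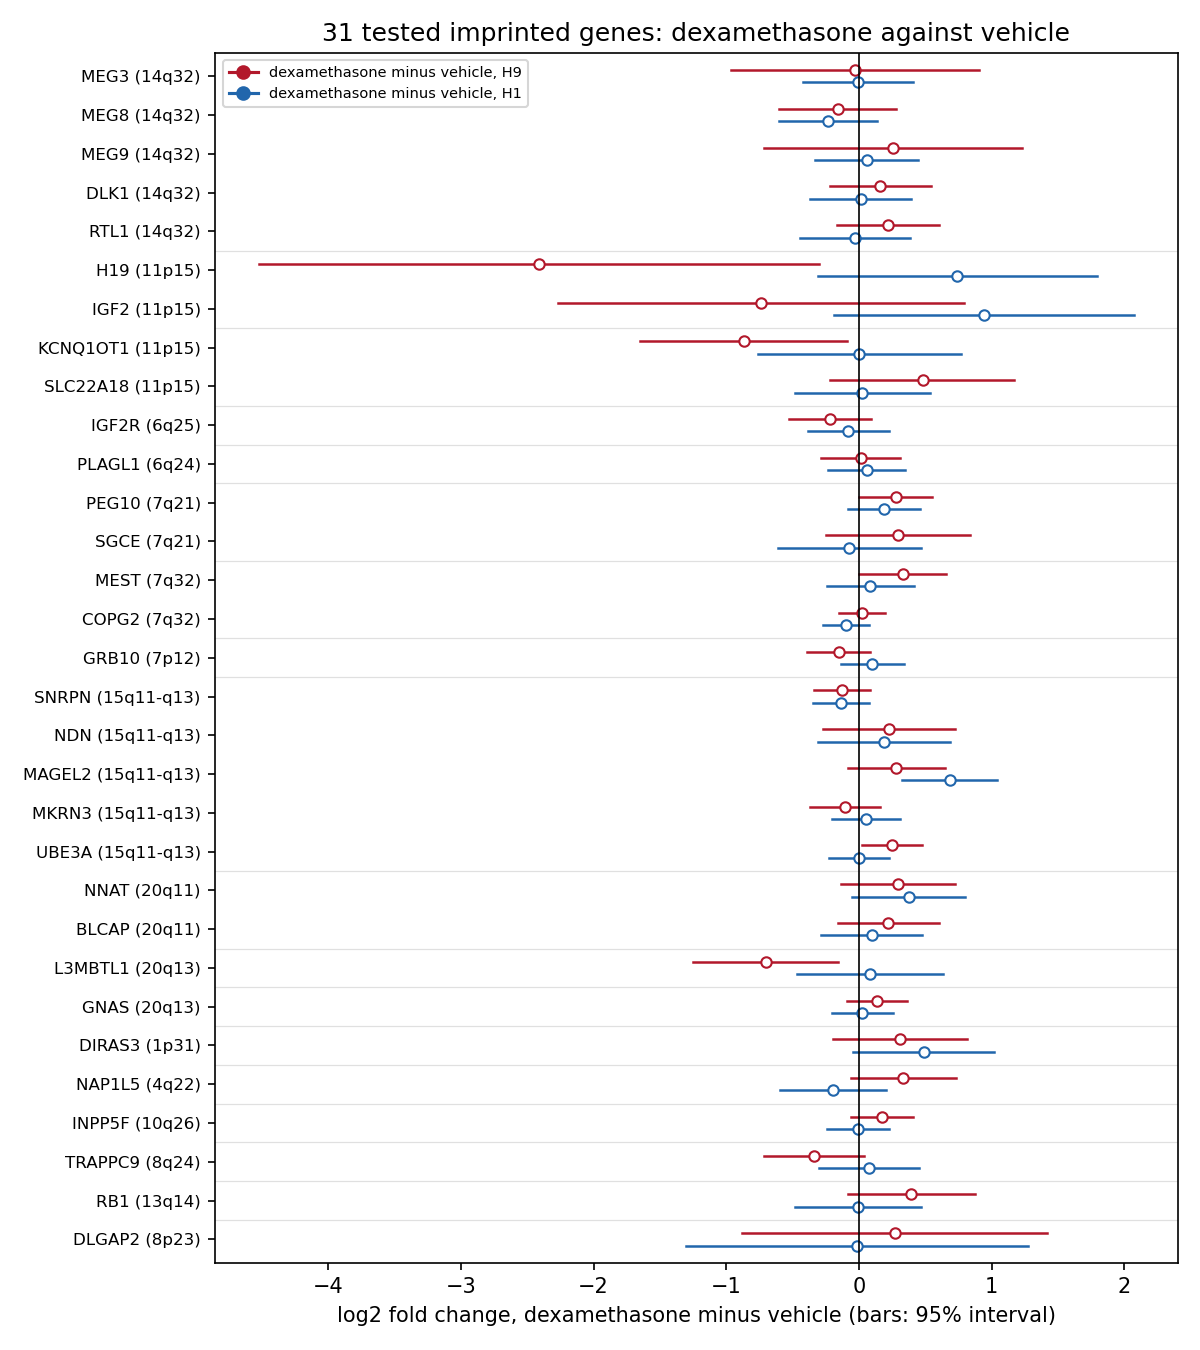
Log2 fold change of dexamethasone over vehicle for the 31 tested imprinted genes, in rows ordered by locus, in H9 (red) and H1 (blue), with 95% intervals; open points did not pass edgeR's test at an adjusted p under 0.05. No point is filled. In H1 only MAGEL2 (0.68) has an interval clear of 0. In H9 the intervals of L3MBTL1, H19 and KCNQ1OT1 lie below 0 and those of UBE3A, PEG10 and MEST above it.

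MAGEL2 had the smallest p of the 31 genes for dexamethasone in H1. It had 114, 101 and 118 CPM in the H1 dexamethasone cultures, against 60.4, 71.4 and 75.4 CPM in the H1 vehicle cultures. The groups were apart by more than their spread, with a log2 fold change of 0.68 ± 0.165 (unadjusted p = 0.00139, adjusted p = 0.652, edgeR). The adjusted p was 0.00314 when the shared estimate of spread excluded H9 vehicle culture 3 and 0.00441 when the H1 libraries were fitted alone, at the same fold change of 0.68. In H9 it had 34.5, 39.1 and 34.1 CPM in the dexamethasone cultures, against 29.2, 37.5 and 21.7 CPM in the vehicle cultures, which overlap (log2 fold change 0.28 ± 0.168, adjusted p = 0.353). The difference between the lines' responses did not pass (log2 -0.40, adjusted p = 0.548). MKRN3 and NDN, its neighbours, had log2 fold changes of 0.05 and 0.19 in H1.

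The next smallest p-values in H1 belonged to DIRAS3 and NNAT. DIRAS3 had 2.78, 2.56 and 2.5 CPM in the H1 dexamethasone cultures, against 2.03, 1.79 and 1.76 CPM in the H1 vehicle cultures (log2 fold change 0.49 ± 0.245, unadjusted p = 0.0703, adjusted p = 1, edgeR). NNAT had 905, 974 and 979 CPM in the H1 dexamethasone cultures, against 634, 762 and 809 CPM in the H1 vehicle cultures (0.37 ± 0.196, unadjusted p = 0.0803, adjusted p = 1). Neither gene overlapped between the treatments, and neither passed with or without H9 vehicle culture 3 (adjusted p = 0.227 for DIRAS3 and 0.119 for NNAT without it).

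In H9 the smallest p-values belonged to L3MBTL1, H19 and KCNQ1OT1, and for L3MBTL1 and KCNQ1OT1 the size depended on H9 vehicle culture 3. L3MBTL1 had 27.9, 24.1 and 22.4 CPM in the H9 dexamethasone cultures, against 29.8, 29.5 and 62.2 CPM in the H9 vehicle cultures, a log2 fold change of -0.70 with that culture and -0.26 without it. KCNQ1OT1 had 14.4, 14.8 and 12.9 CPM in the H9 dexamethasone cultures, against 16, 15.2 and 46.7 CPM in the H9 vehicle cultures, with -0.87 and -0.15. For both genes the treatments did not overlap. H19 had 0.0493, 0.209 and 0.0767 CPM in the H9 dexamethasone cultures, against 1.09, 0.459 and 0.204 CPM in the H9 vehicle cultures, where 1 pair of values overlaps, with a log2 fold change of -2.41 ± 0.968 (unadjusted p = 0.0283, adjusted p = 0.301, edgeR). The value was -1.57 without H9 vehicle culture 1 and -3.18 without H9 dexamethasone culture 2. At 14q32 the log2 fold changes with dexamethasone lay between -0.03 and 0.22 in either line for MEG3, RTL1 and DLK1, while MEG8 was at -0.16 in H9 and -0.23 in H1, and MEG9 at 0.26 in H9 and 0.06 in H1. None passed, and of these only MEG8 in H1 had treatments free of overlap.

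Genes that set, keep or erase imprints were read from a list of 28, of which 20 were tested, and more of them were lower than higher in H9. In vehicle cultures 9 were lower and 1 higher (KHDC3L, an oocyte factor of maternal imprints, under 1 CPM), and in dexamethasone cultures 10 were lower and 1 higher, against 21.2% of all genes lower in each treatment. Of all genes 25.7% were higher in vehicle cultures and 22.5% in dexamethasone cultures. Without H9 vehicle culture 3, 14 of the 20 were lower and 0 higher in vehicle cultures, where 58.6% of all genes were called either way. In dexamethasone cultures it was then 14 lower and 1 higher, where 64.6% of all genes were called. The median log2 fold change of the 20 was -0.26 in vehicle cultures and -0.41 in dexamethasone cultures. UHRF1, which brings the maintenance methyltransferase to newly copied DNA, averaged 7.51 ± 2.4 CPM in H9 vehicle cultures and 39.7 ± 1 CPM in H1 vehicle cultures (SD, n = 3 each), a log2 fold change of -2.42 ± 0.178 (adjusted p = 1.08e-06, edgeR). TDG, a glycosylase of demethylation, was at -0.79, HELLS, a chromatin remodeller of DNA methylation, at -0.76, DNMT3B, a methyltransferase, at -0.66, and TET2, a methylcytosine oxidase, at -0.56. Without H9 vehicle culture 3 TDG was at -0.58, HELLS at -0.90, DNMT3B at -0.81 and TET2 at -0.47. ZFP57 was listed at 0, and ZNF445, the other zinc finger protein known to protect imprints, did not pass (0.31 ± 0.164, adjusted p = 0.139). ZNF445 was at 0.02 without H9 vehicle culture 3. UHRF1 and HELLS are also known to follow the cell cycle, and the proliferation markers moved the same way between the lines (10 of 10 lower in H9); the part of this in the result was not tested.

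A list of 39 further imprinted genes and transcripts was matched for 35 and tested for 23. In vehicle cultures 6 were higher and 3 lower in H9, where 25.7% of all genes were higher and 21.2% lower, and in dexamethasone cultures 8 were higher and 4 lower, against 22.5% and 21.2%. Without H9 vehicle culture 3 it was 7 higher and 5 lower of the 23 in vehicle cultures, where 58.6% of all genes were called either way. In dexamethasone cultures it was then 9 higher and 6 lower, where 64.6% of all genes were called. The median log2 fold change of the 23 was 0.32 in vehicle cultures and 0.30 in dexamethasone cultures. Beside DIO3, those higher in H9 vehicle cultures with a mean of at least 1 CPM over both lines were KCNK9, a potassium channel, at a log2 fold change of 0.77, PPP1R9A, the synaptic scaffold neurabin, at 0.70, and ADAM23, a neuronal surface protein, at 0.52. Below that level lay WT1, a zinc finger factor, at 2.38 (adjusted p = 0.0305, 1.09 ± 0.9 CPM in H9 and 0.203 ± 0.18 CPM in H1), and KLF14, another zinc finger factor, at 2.53. NPAP1, also below that level, was lower in H9 at -2.53 (adjusted p = 0.00289, edgeR). It averaged 0.0548 CPM in H9 vehicle cultures and 0.387 CPM in H1 vehicle cultures. CPA4, a carboxypeptidase next to MEST, averaged 2.7 ± 0.55 CPM in H9 vehicle cultures and 14.5 ± 4.8 CPM in H1 vehicle cultures (SD, n = 3 each), at -2.44 ± 0.326 (adjusted p = 9.58e-05, edgeR). LIN28B, a repressor of let-7 microRNAs, was at -0.72. For dexamethasone, edgeR called 0 genes of either list in either line. With an unadjusted p under 0.05 there were 3 of the 20 imprint-keeping genes and 4 of the 23 further imprinted genes in H9, where 16.3% of all genes had one, and 0 of the 20 and 1 of the 23 in H1, where 2.95% did.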

How the data were processed

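Polyadenylated RNA of 12 neural cultures was sequenced, 3 sister cultures in each of 4 groups, and the labelled line and condition gave the groups. Each deposited file holds raw, whole-number counts per Ensembl gene ID for 1 library, made by the authors with STAR 2.5.3a and HTSeq on hg38 and GRCh38.p10, per the submitters' processing notes. Neither the annotation release nor the strand setting is given in the sources used here. The files behaved like counts assigned by strand to whole gene spans: coding genes lying inside another gene of the same strand were listed at 0 in 95.4% of cases, those inside genes of the opposite strand in 21.2%, and those with no overlap in 15.4%. Gene symbols came from the gene name table for 41836 of the 63925 IDs and from GENCODE 29 for 16203 more; 5886 had neither. Coordinates are 1-based on GRCh38, and sequences come from RefSeq tables and GENCODE 29 transcripts.

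After filterByExpr (edgeR 4.0.16) 17819 genes remained. TMM factors scaled the libraries, and edgeR's quasi-likelihood F-test was run on all 12 with 1 mean per group and 8 residual degrees of freedom, adjusted by Benjamini-Hochberg with a threshold of 0.05. Each standard error is the absolute log2 fold change over the root of its F value. CPM was computed from the deposited counts with TMM scaling, as mean ± SD over 3 cultures. Since only sister cultures were compared, the p-values reflect variation among such cultures. Intervals on read ratios are exact, at 95%, and cover counting error only. The test was checked on simulated counts.

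The members and gene lists were chosen with earlier results of these data known. Values by culture are given for genes with an adjusted p under 0.05 and a log2 fold change of at least 1 either way between the lines, for the 3 smallest p-values of dexamethasone in each line, and for partners at their loci. Of each further list, at most 5 genes each way are named, with a mean of at least 1 CPM over the groups compared. WT1, KLF14, NPAP1, KHDC3L, ZFP57, ZNF445, SNHG14, AL117190.2, MIR493HG and DIO3OS were named outside this rule after their values were seen. Alternatives were RLE size factors, DESeq2 1.42.0, no filter, a minimum of 1 CPM in 3 libraries, totals that omit mitochondrial genes and the top 20 genes, fits of only the groups compared, culture number as a block, and each library left out in turn. The block together with leaving out H9 vehicle culture 3 was an addition made with the data in view. R 4.3.3 and, for figures, matplotlib 3.10.9 were used.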

Additional observations from a re-analysis of the deposited data

How the results depend on the processing

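Of the 39 genes, none that had passed between the lines changed direction under any of the 20 alternatives; the genes of the further lists were refitted only without H9 vehicle culture 3. Between the lines, leaving out 1 library at a time gave 16 to 24 called genes in vehicle cultures and 17 to 26 in dexamethasone cultures; both upper values are without H9 vehicle culture 3, and all 20 and all 19 original calls remained there. Without that culture 58.6% and 64.6% of all genes were called, against 46.9% and 43.6% with all 12 libraries. With only the compared groups fitted, 15 and 25 genes were called. For the other settings in this section the share of all genes is not given. Shifts in these counts can therefore not be read as particular to imprinted genes. Calls in vehicle cultures that some of the 20 alternatives lost were GNAS in 12, RB1 in 4, MEST in 3, NAP1L5 in 2, and DLK1, DIRAS3 and NNAT in 1 each; in dexamethasone cultures COPG2 and DIRAS3 lost theirs in 6 each. For dexamethasone, leaving out 1 library at a time gave 0 to 1 called genes in H1, 0 to 1 for the mean of both lines, 0 to 0 in H9 and 0 to 0 for the difference of the responses. DESeq2 called 1 gene for the mean of both lines, and the H1 libraries fitted alone gave 1 (MAGEL2). Same-numbered cultures had correlations of deviations from -0.0614 to 0.179. Between the treatments these were 0.179, 0.0996 and 0.0498 in H1 and -0.0145, 0.113 and 0.0115 in H9. Differently numbered cultures were not compared in this way, so whether culture numbers pair the samples is not known. With culture number as a block, 19 genes were called between the lines in vehicle cultures and 0 for dexamethasone; the block with H9 vehicle culture 3 left out gave 2 in H1 (MAGEL2 and NNAT) and 1 for the mean of both lines. Few counts limit DLGAP2, H19, IGF2, SLC22A18, CDKN1C, ZIM2 and USP29, and in H9 also MEG3 and MEG9.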

Other observations

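Of 141 coding genes that lie wholly inside a gene of the same strand without sharing a base of exon with it, 140 were listed at 0 in all 12 libraries. Some genes that most cells use and that overlap another gene were also at or near 0, among them TUBB at 0, EHMT2 at 0, NAA60 at 0 and RPL7A at 0 to 1 reads. Overlap did not always go with a 0: GAPDH, with 14.2% of its exon bases shared, had 14051 to 53498 reads, against 16% and 0 reads for TUBB. ACTB, which overlaps no exon, had 43800 to 141099 reads. SOX2, a progenitor gene that lies inside a longer noncoding gene, was at 0, and so was HES5, another of the 8 progenitor markers. The summed level of the 8 was 4300 to 7950 CPM over the 12 libraries, most of it from VIM and NES. The highest sum was that of H9 vehicle culture 3, where NES was at 5540 CPM. PEG3, a paternally expressed zinc finger gene known to be abundant in brain, lies wholly inside ZIM2 in the annotation and was at 0 in every library. These values were chosen after they were seen.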
